A study of Mus musculus with 12 samples.

Results

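Interferon-stimulated genes are the genes that a cell turns on when interferon binds its receptors. A list of 38 such genes was described in RNA-seq counts of BV2 cells, an immortalized mouse microglial line. The members were taken by gene name, and the list was chosen with earlier results of these data known. Of the 38 members, 37 were matched to a gene of the count table, and 36 of these were among the 11626 genes that reached 0.5 CPM in 3 or more libraries (CPM is the count of a gene per standard library size). Ifi44, a cytoplasmic interferon-induced protein, did not pass, with no more than 0.11 CPM in any library, and Mx1 was not analysed here.

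Type I interferon signals through the receptor chains Ifnar1 and Ifnar2 and the kinases Jak1 and Tyk2, which activate Stat2. Stat2 and Irf9 are part of a complex called ISGF3, which binds the interferon-stimulated response element (ISRE) before its target genes. Interferon gamma acts through Ifngr1 and Ifngr2 and a shorter element called GAS. The products sense foreign RNA and DNA, block the copying of viruses and adjust the response itself, and microglia are known to keep part of this program on at a low level and to raise it after ischemia.

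The study compared BV2 lines stably carrying either a control hairpin RNA (shCtrl) or one directed at Anxa2 (shAnxa2), a calcium- and phospholipid-binding annexin, each delivered by lentivirus and selected with puromycin. Each line was left untreated (CTRL) or taken through oxygen-glucose deprivation and reoxygenation (OGD/R, OGDR in the group names), a culture model of ischemia and reperfusion. The 4 groups shCtrl-CTRL, shCtrl-OGDR, shAnxa2-CTRL and shAnxa2-OGDR held 3 libraries each, with total counts of 19521877 to 27288843. Per the labels, deprivation lasted 4 h and reoxygenation 12 h, while the study's methods give a longer reoxygenation for these cells. All groups are derivatives of 1 cultured line, and the study's methods call the libraries of a group biological replicates. The labels do not say whether they came from separate cultures, and the p-values measure the spread between these libraries. In the deposited table's coordinates, on the mm39 build that the submitters' processing notes name, the 5 members whose OGD/R changes differed most between the lines lay at chromosome 12, 26492745 to 26506451 for Rsad2, chromosome 11, 100585710 to 100595097 for Dhx58, chromosome 7, 140842619 to 140846394 for Irf7, chromosome 16, 35758840 to 35792975 for Parp9 and chromosome 3, 142236103 to 142255910 for Gbp7.

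Libraries were grouped by their sample titles. A second label, the cell type, calls every OGDR library an Anxa2 knockdown and every CTRL library wild type, which conflicts with the titles. Anxa2 itself followed the titles, with 164 to 294 CPM in the 6 shCtrl libraries and 18.2 to 44.4 CPM in the 6 shAnxa2 libraries. By treatment, Anxa2 rose after OGD/R in shCtrl cells, from 164, 174 and 177 CPM to 251, 294 and 291 CPM (log2 fold change 0.70 ± 0.0643 SE, edgeR adjusted p = 1.21e-09), and fell in shAnxa2 cells, from 35, 44.4 and 41.8 CPM to 18.2, 20.1 and 20.6 CPM (-1.04 ± 0.0827 SE, edgeR adjusted p = 3.05e-10). The treatment labels of the shAnxa2 libraries were not tested against another measurement of the same libraries. Over the 36 members, the root mean square distance in log2(CPM + 0.5) was 0.364 between shAnxa2-CTRL and shCtrl-OGDR libraries and 0.397 between shAnxa2-OGDR and shCtrl-CTRL libraries. The distance was 0.537 between the untreated groups, 0.547 between the OGDR groups, 0.491 between CTRL and OGDR in shCtrl cells, 0.423 in shAnxa2 cells and 0.193 to 0.276 within groups. By the members, and over all genes tested as well, the untreated shAnxa2 libraries were thus closest to the OGDR libraries of the control line. The shAnxa2-OGDR libraries were, by both, closest to the untreated libraries of the control line. Whether the CTRL and OGDR labels were exchanged in the shAnxa2 line was not tested. The comparison of OGDR with CTRL in shCtrl cells uses no group mean of shAnxa2 cells, whereas the other 4 comparisons rest on the shAnxa2 labels as given.

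All 14 microglia and macrophage markers were tested, and their summed level ran from 1948 to 2132 CPM in the shCtrl libraries and from 1656 to 1771 CPM in the shAnxa2 libraries. Csf1r, Cd68, Ptprc, Adgre1 and Trem2 were among the highest of them, while the homeostatic markers Tmem119, P2ry12 and Fcrls averaged 5.65, 2.09 and 0.943 CPM. Of 17 markers of neurons, astrocytes, oligodendrocytes, endothelium and fibroblasts, 16 averaged below 1 CPM, as Fcrls did. The exception was the oligodendrocyte marker Mbp, which averaged 4.24 CPM. Of the 14 microglia and macrophage markers, 2 were higher and 8 lower in the untreated knockdown line at an edgeR adjusted p under 0.05 (71.4%, against 59.2% of all genes tested). After OGD/R, 5 were higher and 8 lower in the knockdown line (92.9%, against 67.9% of all genes tested). The part of the lower summed level of these markers in the results was not tested. In bulk RNA, fewer cells that express a gene and less of its RNA per cell cannot be told apart.

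The ISRE core, searched as GAAA, a gap of 2 bases and GAAA again on either strand (TTTC, the gap and TTTC in reverse), is the part of the element that ISGF3 contacts. It was found within 250 bases before to 50 bases after the start of 15 of the 30 member genes that had a RefSeq promoter, against 3.99% of 27025 genes, and in 16 of the 37 promoters of these members, against 3.44% of 32851 RefSeq promoters. The GAS core TTCNNNGAA, which reads alike on both strands, was found in 10 of the 30 member genes (33.3%), against 9.55% of genes, and in 10 of the 37 member promoters, against 8.30% of all promoters. The cores of 6 members are shown because these genes behave differently in the results that follow: Isg15, Rsad2 and Stat2 rose after OGD/R in shCtrl cells, Gbp3 and Gbp7 fell, and Ifit1 passed no test. Each window is given on the coding strand of the RefSeq gene in GRCm38.p6, with the ISRE cores in capitals and up to 15 bases on either side.
Isg15 (chr4:156200860-156200911, minus strand): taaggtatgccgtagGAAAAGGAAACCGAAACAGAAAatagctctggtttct
Rsad2 (chr12:26456548-26456587, minus strand): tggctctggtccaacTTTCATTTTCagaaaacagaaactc
Stat2 (chr10:128270261-128270300, plus strand): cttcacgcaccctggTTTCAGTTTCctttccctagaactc
Gbp3 (chr3:142559984-142560029, plus strand): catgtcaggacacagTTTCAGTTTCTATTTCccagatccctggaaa
Gbp7 (chr3:142530268-142530307, plus strand): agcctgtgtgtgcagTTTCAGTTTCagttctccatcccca
Ifit1 (chr19:34640770-34640828, plus strand): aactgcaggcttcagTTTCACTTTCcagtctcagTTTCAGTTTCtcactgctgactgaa

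The first base of the outermost core lay 78 bases before the start of Isg15, 120 before that of Rsad2, 222 before that of Stat2, 45 before that of Gbp3, 53 before that of Gbp7 and 104 before that of Ifit1. Isg15 held 3 overlapping cores, Gbp3 and Ifit1 held 2, and the other three held 1. The other members with a core were Bst2, Eif2ak2, Gbp2, Ifih1, Ifit3, Igtp, Irgm1, Oas1a and Trim30a. A match is a description of the letters and does not show binding.

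Levels of the members ranged widely. Per kilobase of exon, Bst2 (tetherin, which holds budding virus at the cell surface) had 91.1 CPM on average over the 12 libraries, Ifi27 (a small membrane protein) 52.5, Trim25 (a ubiquitin ligase that acts on the RNA sensor RIG-I) 30.2, Lgals3bp (a secreted galectin-binding glycoprotein) 29.9 and Oasl1 29.3. At the other end, Gbp7 had 0.205 and Zbp1 0.123 CPM per kilobase. The median of the 36 members was 3.01 CPM per kilobase against 7.53 for all genes tested, and 11 members lay above the latter. The means of Trim25, Lgals3bp and Oasl1 were close, and their order changed from group to group. Isg15, which is among the most strongly induced genes in cells given interferon, stayed at 0.956 to 2.31 CPM in the 12 libraries, and 10 members averaged less than 5 CPM.

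**Figure D1:**
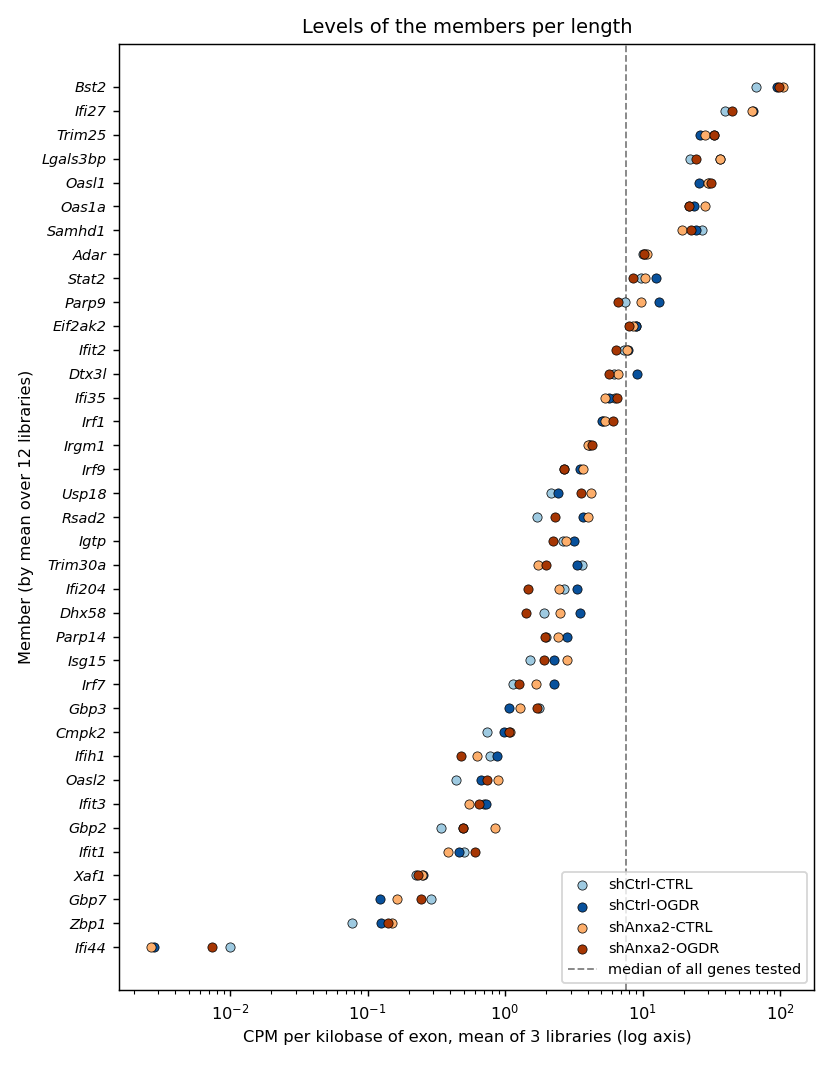
Mean level of each member in the 4 groups (3 libraries each) as CPM per kilobase of exon on a log axis, ordered by the mean over 12 libraries, with a dashed line at the median of all genes tested (7.53). The groups of one member lie close together compared with the distance from Bst2 (91.1) to Zbp1 (0.123), and Ifi44 lies below all members that passed the filter.

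After OGD/R, more members rose than fell in the control line, and more fell than rose in the knockdown line. In shCtrl cells, 14 of the 36 members rose and 5 fell at an adjusted p under 0.05, which is 52.8% of them against 63.4% of all genes tested. Every adjusted p given here comes from the quasi-likelihood test of edgeR with Benjamini-Hochberg adjustment over the 11626 genes. Of all genes, 32.4% rose and 31.0% fell. In shAnxa2 cells, 5 members rose and 15 fell (55.6%), against 55.0% of all genes, of which 28.2% rose and 26.8% fell. The share of members called was thus near or below the background in both lines. The median log2 fold change of the members was 0.22 in shCtrl and -0.24 in shAnxa2 cells, with a median of 0.00 over all genes tested in both.

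Most changes were small. A stricter limit asked for an unadjusted p below 0.05 and a log2 fold change of 1 or more in size. In shCtrl cells 1 member rose and 1 fell past it, which 6.86% of all genes did (4.7% up and 2.16% down), and in shAnxa2 cells 0 of 36 did by edgeR or by DESeq2, against 3.8% of all genes (0.895% up and 2.91% down). Between the untreated lines 3 members were higher and 1 lower, against 5.81% of all genes (3.88% and 1.93%), and after OGD/R 0 were higher and 2 lower, against 10.2% (3.72% and 6.45%). For the interaction 2 were higher and 9 lower, against 21.7% (8.95% and 12.8%).

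In the interaction, which tests whether the OGD/R change differs between the lines, 20 members were lower and 6 higher in shAnxa2 cells (72.2%), against 70.0% of all genes, with 35.1% lower and 34.9% higher. The median interaction of the members was -0.52, and that of all genes -0.01.

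Of the 36 members, 12 rose in shCtrl cells and fell in shAnxa2 cells: Isg15, Irf7, Irf9, Stat2, Rsad2, Dhx58, Ifi204, Parp9, Parp14, Dtx3l, Lgals3bp and Ifi27. Another 3, namely Gbp3, Trim25 and Samhd1, fell in shCtrl cells and rose in shAnxa2 cells. No member changed in the same direction in both lines by edgeR, nor did any at an unadjusted p under 0.05 or by DESeq2. Of all genes tested, 22.0% rose in shCtrl and fell in shAnxa2 cells, and 22.4% fell in shCtrl and rose in shAnxa2 cells. Only 0.645% were called in the same direction in both lines, so opposite calls were common among all genes. The directions given for shAnxa2 cells follow the labels as given, and an exchange of CTRL and OGDR in that line was not tested. OGD/R was called in neither line for 26.7% of all genes and for 12 members: Ifit1, Ifit3, Ifih1, Zbp1, Gbp2, Igtp, Irgm1, Trim30a, Xaf1, Cmpk2, Eif2ak2 and Adar.

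**Figure D2:**
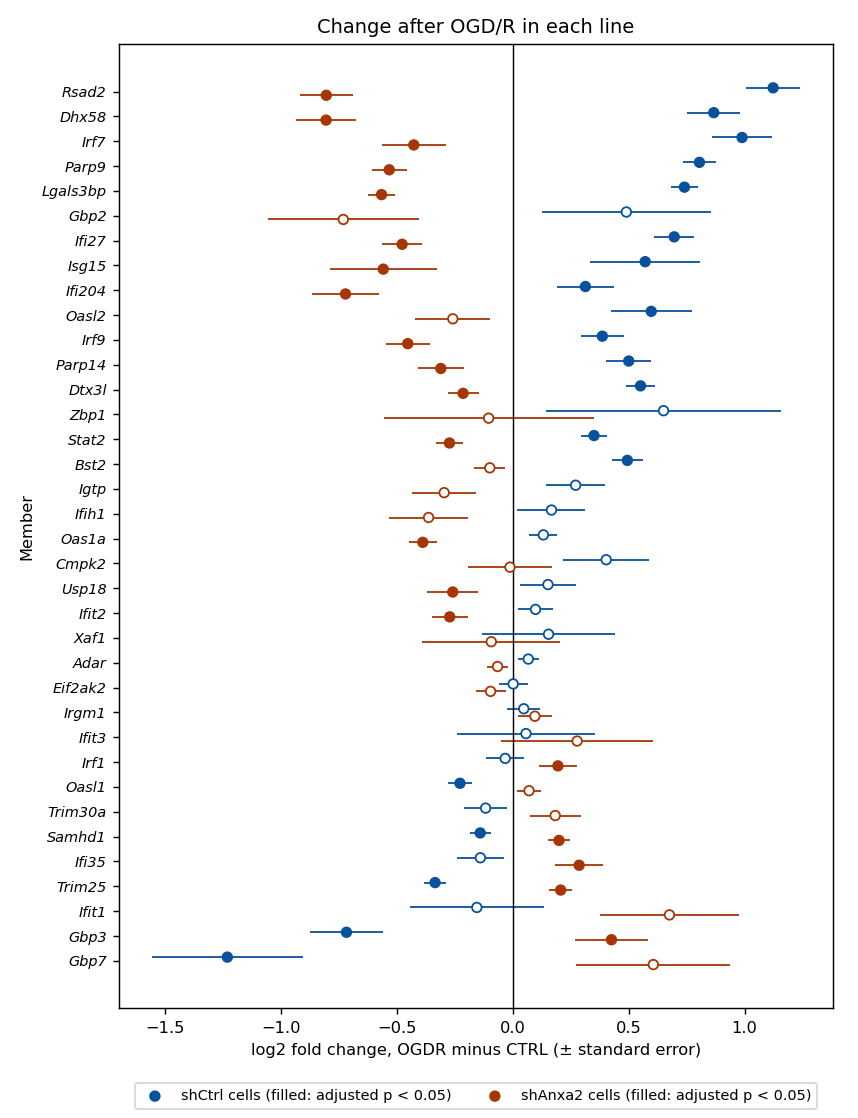
Log2 fold change after OGD/R (x axis, OGDR minus CTRL, with the standard error of the fit) of the 36 members in shCtrl cells (blue) and shAnxa2 cells (brown), ordered by the interaction and filled where the edgeR adjusted p is under 0.05. The blue points of the upper members lie to the right of 0 and the brown points to the left, from 1.12 and -0.80 for Rsad2, and the order turns around for Gbp3 and Gbp7 at the bottom.

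Without OGD/R, more members were higher than lower in the knockdown line, and after OGD/R more were lower than higher. In shAnxa2-CTRL against shCtrl-CTRL, 15 members were higher and 5 lower (55.6%, against 59.2% of all genes tested, with 29.5% higher and 29.7% lower). After OGD/R, 6 members were higher and 17 lower in the knockdown line (63.9%, against 67.9% of all genes, with 33.8% higher and 34.2% lower). The highest group mean was shCtrl-OGDR for 15 members and shAnxa2-CTRL for 11, and the lowest was shCtrl-CTRL for 15 and shAnxa2-OGDR for 10. The highest and lowest groups were not counted over all genes tested. Of all genes, 22.0% rose in shCtrl and fell in shAnxa2 cells with OGD/R, and 22.4% did the reverse. These are shares of genes called, a different measure from the highest or lowest group mean, so they are no background for it. The comparisons between the lines share groups with those of OGD/R, so they are not independent of them.

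**Figure D3:**
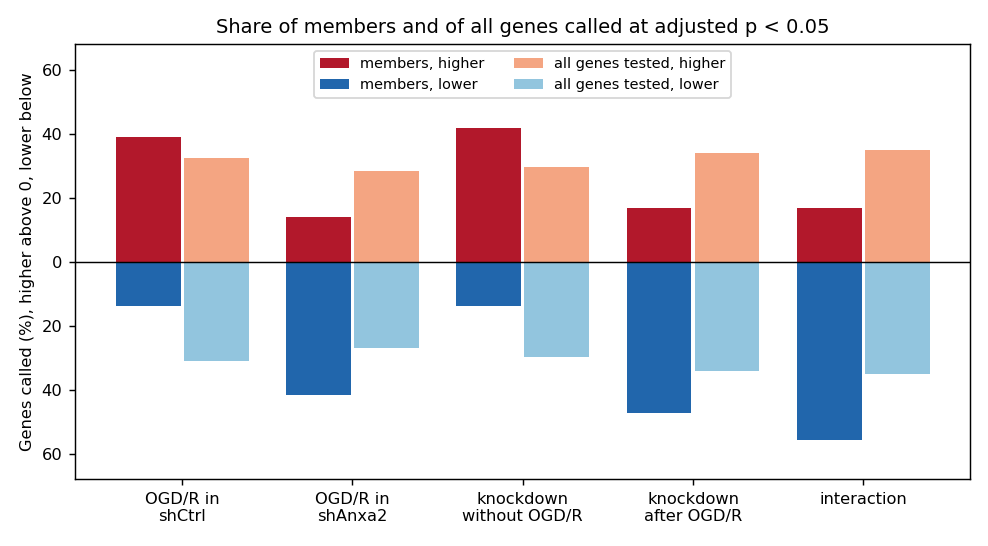
Share of the 36 members (dark bars) and of the 11626 genes tested (light bars) called higher (above 0) or lower (below 0) at an edgeR adjusted p under 0.05 in each comparison. For all genes the shares of both directions are close to each other in each comparison, while the members lean to higher in OGD/R of shCtrl cells (38.9% and 13.9%) and to lower in the interaction (55.6% and 16.7%).

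Of the transcription factors, Irf7, Irf9 and Stat2 rose after OGD/R in shCtrl cells and fell in shAnxa2 cells. Irf7, which switches on the interferon genes themselves, had 3.97, 4.21 and 4.67 CPM in shCtrl-CTRL, 8.29, 8.32 and 9.01 CPM in shCtrl-OGDR, 5.57, 7.12 and 6.31 CPM in shAnxa2-CTRL and 4.8, 4.09 and 5.33 CPM in shAnxa2-OGDR. All 3 shCtrl-OGDR libraries were higher than any other library. The log2 fold change after OGD/R was 0.99 ± 0.131 (SE, edgeR adjusted p = 4.9e-07) in shCtrl cells and -0.43 ± 0.139 (SE, edgeR adjusted p = 0.0119) in shAnxa2 cells, an interaction of -1.42 ± 0.191 (SE, edgeR adjusted p = 4.66e-07). The call in shAnxa2 cells was lost without shAnxa2-CTRL library 2 or shAnxa2-OGDR library 2. Untreated shAnxa2 cells had more Irf7 than untreated shCtrl cells (log2 fold change 0.56 ± 0.137 SE, edgeR adjusted p = 0.00109), and after OGD/R they had less (-0.85 ± 0.133 SE, edgeR adjusted p = 4.36e-06).

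Irf9, the DNA-binding subunit of ISGF3, had 14.1, 14.3 and 14.8 CPM in shCtrl-CTRL, 18.8, 18.1 and 19.7 CPM in shCtrl-OGDR, 20.3, 17 and 22.1 CPM in shAnxa2-CTRL and 13.2, 15 and 15.2 CPM in shAnxa2-OGDR. The untreated control and the treated knockdown libraries shared one range, and the other 6 libraries lay above it. Its log2 fold change was 0.39 ± 0.0928 (SE, edgeR adjusted p = 0.000838) in shCtrl cells and -0.45 ± 0.0946 (SE, edgeR adjusted p = 0.000276) in shAnxa2 cells. Stat2, the signal-carrying partner of Irf9, had 59.3, 54.8 and 60.4 CPM in shCtrl-CTRL, 76.6, 73.3 and 72.5 CPM in shCtrl-OGDR, 60.7, 63.3 and 60.2 CPM in shAnxa2-CTRL and 48.6, 49.7 and 54.1 CPM in shAnxa2-OGDR. Its shCtrl-OGDR libraries were the highest and its shAnxa2-OGDR libraries the lowest, with no overlap of CTRL and OGDR in either line. The log2 fold change of Stat2 was 0.35 ± 0.0556 (SE, edgeR adjusted p = 6.7e-06) and -0.27 ± 0.0576 (SE, edgeR adjusted p = 0.000308) in the shCtrl and shAnxa2 lines, and its interaction was -0.62 ± 0.0801 (SE, edgeR adjusted p = 2.16e-07).

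Irf1, an early factor in the response to interferon gamma, followed no such course. Its levels were 21.9, 19.5 and 20.1 CPM in shCtrl-CTRL, 20.7, 20.03 and 19.3 CPM in shCtrl-OGDR, 20.5, 19.5 and 23.1 CPM in shAnxa2-CTRL and 24, 22.4 and 26.1 CPM in shAnxa2-OGDR. In the comparisons made the groups overlapped, except that the shAnxa2-OGDR libraries all exceeded the shCtrl-OGDR libraries, by a log2 difference of 0.27 ± 0.0829 (SE, edgeR adjusted p = 0.00626), a call that was lost without shAnxa2-OGDR library 3. Its rise after OGD/R in shAnxa2 cells (0.20 ± 0.083 SE, edgeR adjusted p = 0.0496) was close to the threshold and was lost under DESeq2 and when any of 9 of the 12 libraries was left out. Its interaction was 0.23 ± 0.117 (SE, edgeR adjusted p = 0.0874).

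Among the ubiquitin-like modifier and its enzymes, Isg15, which is attached to proteins like ubiquitin, had 1.25, 1.25 and 0.956 CPM in shCtrl-CTRL, 1.76, 1.72 and 1.64 CPM in shCtrl-OGDR, 1.96, 2.31 and 2.1 CPM in shAnxa2-CTRL and 1.84, 1.39 and 1.12 CPM in shAnxa2-OGDR. In whole counts these values are 23 to 53 per library. In shCtrl cells all OGDR libraries exceeded the CTRL libraries, and in shAnxa2 cells all were below them. The log2 fold change was 0.57 ± 0.239 (SE, edgeR adjusted p = 0.04005) in shCtrl and -0.56 ± 0.232 (SE, edgeR adjusted p = 0.0448) in shAnxa2 cells. Both calls were lost with DESeq2, without a filter on low counts, and when any of 5 libraries of the compared groups was left out. The interaction of -1.13 ± 0.333 (SE, edgeR adjusted p = 0.00422) and the difference between the untreated lines of 0.88 ± 0.233 (SE, edgeR adjusted p = 0.00221) were called under each alternative that kept the adjusted p as the limit.

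Usp18, which removes Isg15 from proteins and shuts down signalling at Ifnar2, differed mainly between the lines. It had 6.06, 6.37 and 5.73 CPM in shCtrl-CTRL, 6.65, 6.26 and 7.38 CPM in shCtrl-OGDR, 11.4, 10.7 and 13.3 CPM in shAnxa2-CTRL and 9.85, 10.5 and 9.31 CPM in shAnxa2-OGDR. All 6 shAnxa2 libraries lay above all 6 shCtrl libraries. The log2 difference between lines was 0.97 ± 0.114 (SE, edgeR adjusted p = 1.07e-07) without and 0.56 ± 0.116 (SE, edgeR adjusted p = 0.000174) after OGD/R. Its change with OGD/R was 0.15 ± 0.121 (SE, edgeR adjusted p = 0.28) in shCtrl cells, which did not pass, and -0.26 ± 0.11 (SE, edgeR adjusted p = 0.0495) in shAnxa2 cells, which was lost in the fit of only those groups, under DESeq2, with the replicate block, and without any of 6 single libraries. The interaction of -0.41 ± 0.163 (SE, edgeR adjusted p = 0.0287) was lost without library 3 of any of the 4 groups.

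Trim25 was the second most abundant member by CPM, and it moved opposite to most of the members called. It had 189.6, 192 and 188 CPM in shCtrl-CTRL, 156, 153 and 142 CPM in shCtrl-OGDR, 163, 164 and 166 CPM in shAnxa2-CTRL and 180.2, 188 and 201 CPM in shAnxa2-OGDR. The shCtrl-OGDR libraries were the lowest, and in each line CTRL and OGDR libraries did not overlap. Trim25 fell in shCtrl cells by 0.33 ± 0.0487 (SE, edgeR adjusted p = 1.99e-06) on the log2 scale and rose in shAnxa2 cells (0.21 ± 0.0488 SE, edgeR adjusted p = 0.000923), with an interaction of 0.54 ± 0.0689 (SE, edgeR adjusted p = 1.87e-07).

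**Figure D4:**
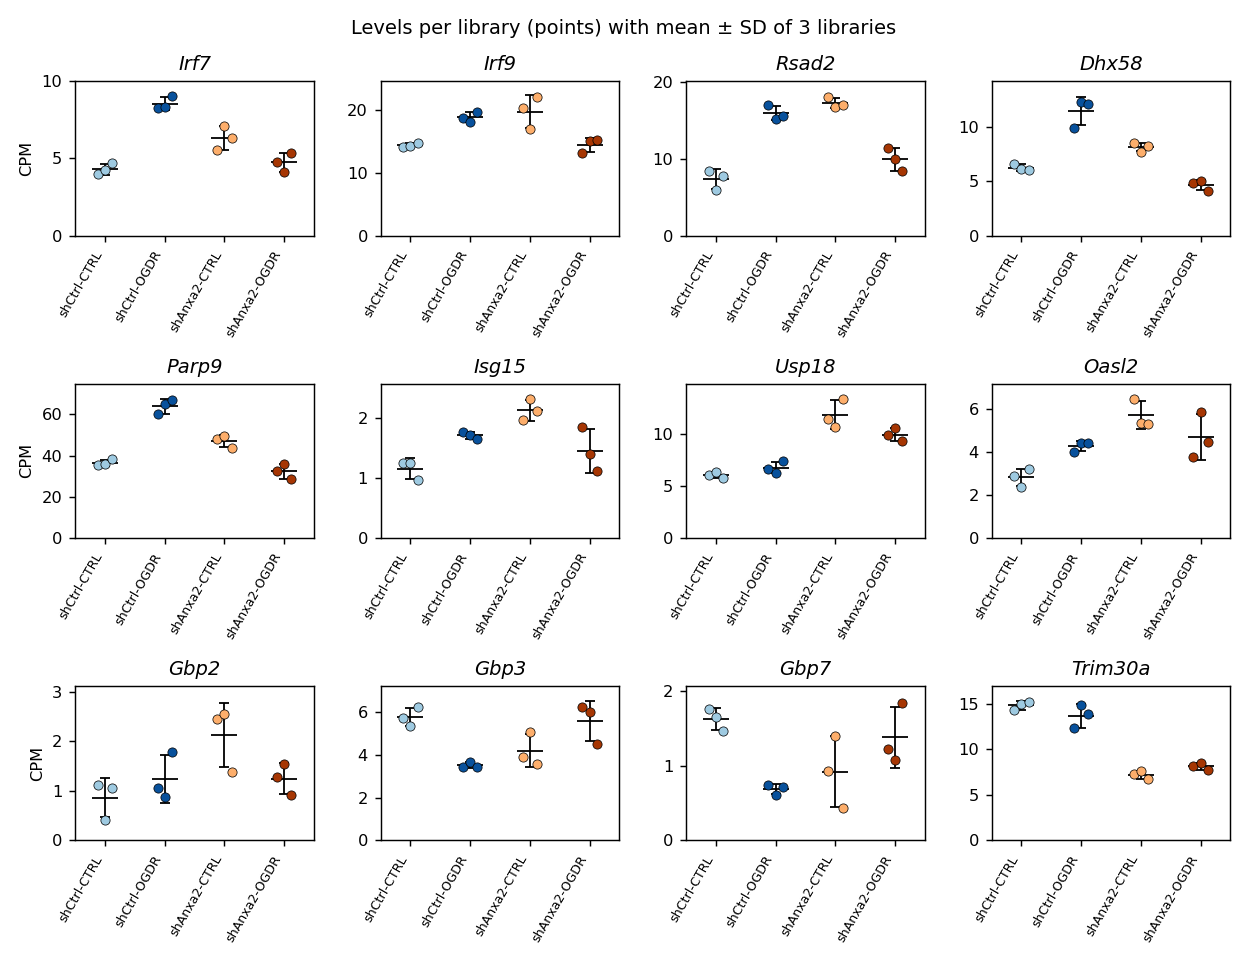
Level in CPM of 12 members in each library (points), with the mean and SD of 3 libraries (line and bars), on linear axes that start at 0. Irf7, Irf9, Rsad2, Dhx58 and Parp9 are higher in shCtrl-OGDR and shAnxa2-CTRL than in the groups they are compared with, Gbp3 and Gbp7 are lowest in shCtrl-OGDR, Usp18 is higher in all shAnxa2 libraries and Trim30a lower.

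Among the sensors of foreign RNA, Dhx58 (LGP2, a regulator of the RNA helicases that detect viruses) was called in all 5 comparisons and the others in none or in some. Dhx58 had 6.64, 6.15 and 6.06 CPM in shCtrl-CTRL, 9.97, 12.3 and 12.1 CPM in shCtrl-OGDR, 8.51, 7.75 and 8.3 CPM in shAnxa2-CTRL and 4.85, 5.05 and 4.12 CPM in shAnxa2-OGDR. All 4 groups were separate, with shCtrl-OGDR highest and shAnxa2-OGDR lowest. Its log2 fold change with OGD/R was 0.87 ± 0.115 (SE, edgeR adjusted p = 5.15e-07) in shCtrl cells and -0.80 ± 0.129 (SE, edgeR adjusted p = 1.16e-05) in shAnxa2 cells. The knockdown line was higher without OGD/R (0.38 ± 0.12 SE, edgeR adjusted p = 0.00855) and lower after it (-1.29 ± 0.123 SE, edgeR adjusted p = 1.77e-09), and the interaction of -1.67 ± 0.173 (SE, edgeR adjusted p = 5.91e-09) was past the limit of 1 on the log2 scale, which 21.7% of all genes passed in either direction.

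Ifih1 (MDA5, which detects long double-stranded RNA) after OGD/R stood lower in the knockdown line than in the control line, with a log2 difference of -0.87 ± 0.161 (SE, edgeR adjusted p = 4.38e-05), with 6.41, 8.24 and 6.81 CPM in shCtrl-OGDR and 3.01, 4.21 and 4.51 CPM in shAnxa2-OGDR. Its interaction of -0.53 ± 0.224 (SE, edgeR adjusted p = 0.0388) was lost without any of 5 single libraries. Eif2ak2 (PKR, a kinase that halts translation) was called in 1 of the 5 comparisons, lower in the knockdown than in the control line after OGD/R (-0.17 ± 0.064 SE, edgeR adjusted p = 0.0221), and the call was lost without shCtrl-OGDR library 3 or shAnxa2-OGDR library 3. Adar, which edits double-stranded RNA, was called in none, with group means of 81.2 to 87 CPM. Its difference between the untreated lines (0.10 ± 0.0453 SE, edgeR adjusted p = 0.0614) and its interaction (-0.13 ± 0.0642 SE, edgeR adjusted p = 0.0694) were near the threshold. Both were called with a filter of 1 CPM and without some single libraries. Zbp1, a sensor of Z-form nucleic acid, was at 0.0733 to 0.666 CPM and was called in none.

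Of the DNA-sensing p200 family, Ifi204 had 11.3, 8.76 and 8.53 CPM in shCtrl-CTRL, 12, 10.9 and 12.6 CPM in shCtrl-OGDR, 8.51, 9.38 and 8.26 CPM in shAnxa2-CTRL and 5.25, 6.24 and 4.22 CPM in shAnxa2-OGDR. In shCtrl cells the groups overlapped, and in shAnxa2 cells all OGDR libraries were below all CTRL libraries. The log2 fold change was 0.31 ± 0.124 (SE, edgeR adjusted p = 0.0311) in shCtrl cells, a call lost without any of 4 of the 6 shCtrl libraries, and -0.72 ± 0.143 (SE, edgeR adjusted p = 0.000154) in shAnxa2 cells. After OGD/R it was lower in the knockdown line by a log2 difference of -1.16 ± 0.137 (SE, edgeR adjusted p = 6.32e-08).

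The Oas and Oasl genes split. Oas1a, an enzyme that makes the 2-5A messenger for RNA decay, was highest in untreated shAnxa2 cells, at 52.9, 53.4 and 55.4 CPM, and fell there after OGD/R (-0.39 ± 0.0605 SE, edgeR adjusted p = 8.4e-06) to 41.9, 40.8 and 40.9 CPM. In shCtrl cells its change of 0.13 ± 0.0602 (SE, edgeR adjusted p = 0.0584) did not pass. Oasl2, a related protein, had 2.88, 2.38 and 3.2 CPM in shCtrl-CTRL, 3.99, 4.43 and 4.4 CPM in shCtrl-OGDR, 6.45, 5.34 and 5.32 CPM in shAnxa2-CTRL and 3.77, 5.88 and 4.46 CPM in shAnxa2-OGDR. The shCtrl-CTRL libraries were below all others, by 1.01 ± 0.169 (SE, edgeR adjusted p = 1.69e-05) against untreated shAnxa2 cells, and Oasl2 rose with OGD/R in shCtrl cells (0.60 ± 0.175 SE, edgeR adjusted p = 0.00457). Its neighbour Oasl1, 11003 bases away on chromosome 5, was lower after OGD/R in shCtrl cells (-0.23 ± 0.0519 SE, edgeR adjusted p = 0.000522), and the interaction was 0.30 ± 0.0735 (SE, edgeR adjusted p = 0.000936) for Oasl1 and -0.86 ± 0.238 (SE, edgeR adjusted p = 0.00265) for Oasl2.

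Of the Ifit genes, whose proteins bind foreign RNA ends or translation factors, Ifit2 had group means of 28.6 ± 1.92, 30.7 ± 2.81, 30.4 ± 0.916 and 25.1 ± 1.61 CPM (SD, n = 3, in the order shCtrl-CTRL, shCtrl-OGDR, shAnxa2-CTRL and shAnxa2-OGDR). It fell in shAnxa2 cells (-0.27 ± 0.0781 SE, edgeR adjusted p = 0.00502) and its change in shCtrl cells of 0.10 ± 0.0757 (SE, edgeR adjusted p = 0.263) did not pass. Ifit1 and Ifit3, which lie on the same strand of chromosome 19, were at 0.867 to 2.07 CPM and 0.722 to 1.64 CPM and passed no test. For Ifit1 the change in shAnxa2 cells was 0.68 ± 0.299 (SE, edgeR adjusted p = 0.059), in the direction opposite to Ifit2, and it was called without shAnxa2-OGDR library 1.

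Rsad2 (viperin, which makes an antiviral nucleotide analog) showed the largest rise of the members in shCtrl cells. It had 8.39, 5.97 and 7.75 CPM in shCtrl-CTRL, 17.1, 15.3 and 15.7 CPM in shCtrl-OGDR, 18.1, 16.8 and 17.1 CPM in shAnxa2-CTRL and 11.4, 10.01 and 8.44 CPM in shAnxa2-OGDR. In shCtrl cells every OGDR library was above every CTRL library, and in shAnxa2 cells every one was below. The log2 fold change was 1.12 ± 0.116 (SE, edgeR adjusted p = 9.31e-09) in shCtrl and -0.80 ± 0.115 (SE, edgeR adjusted p = 2.42e-06) in shAnxa2 cells, and the untreated lines differed by 1.24 ± 0.116 (SE, edgeR adjusted p = 2.64e-09). Its interaction was -1.93 ± 0.163 (SE, edgeR adjusted p = 1.78e-10), the lowest of the 36 members. Cmpk2, a mitochondrial nucleotide kinase gene that starts on the other strand of chromosome 12 with 12751 bases between the genes, changed by 0.40 ± 0.186 (SE, edgeR adjusted p = 0.062) in shCtrl cells and -0.01 ± 0.179 (SE, edgeR adjusted p = 0.963) in shAnxa2 cells. Neither passed, but the change in shCtrl cells was called without a filter on low counts, with only the groups compared and without some single libraries. Cmpk2 was higher in untreated shAnxa2 than in untreated shCtrl cells (0.56 ± 0.185 SE, edgeR adjusted p = 0.0118). That call was lost without shCtrl-CTRL library 2 or shAnxa2-CTRL library 3. The interaction of Cmpk2 was -0.41 ± 0.258 (SE, edgeR adjusted p = 0.157).

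Samhd1, which breaks down the nucleotides that viruses need for DNA synthesis, was the most abundant member by CPM and, like Trim25, fell in shCtrl cells and rose in shAnxa2 cells. It had 242, 248 and 247 CPM in shCtrl-CTRL, 223, 225 and 222 CPM in shCtrl-OGDR, 183, 174 and 179 CPM in shAnxa2-CTRL and 215, 201 and 199 CPM in shAnxa2-OGDR. The 4 groups did not overlap in any comparison made. Samhd1 was lower after OGD/R in shCtrl cells (-0.14 ± 0.0453 SE, edgeR adjusted p = 0.00964), higher in shAnxa2 cells (0.20 ± 0.0459 SE, edgeR adjusted p = 0.000712), and lower in untreated shAnxa2 than in untreated shCtrl cells (-0.46 ± 0.0457 SE, edgeR adjusted p = 6.33e-09).

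The interferon-inducible GTPases, which attack the vacuoles of intracellular microbes, differed among neighbours. Gbp7, Gbp3 and Gbp2 lie in this order on the plus strand of chromosome 3, with 9876 and 47392 bases between them. Gbp3 had 5.72, 5.35 and 6.21 CPM in shCtrl-CTRL, 3.4, 3.66 and 3.43 CPM in shCtrl-OGDR, 3.91, 5.05 and 3.57 CPM in shAnxa2-CTRL and 6.22, 5.999 and 4.51 CPM in shAnxa2-OGDR. Its mean was lowest in shCtrl-OGDR, and it fell in shCtrl cells (-0.72 ± 0.156 SE, edgeR adjusted p = 0.000309) and rose in shAnxa2 cells (0.43 ± 0.157 SE, edgeR adjusted p = 0.025), where the groups overlapped and the call was lost without any of 4 of the 6 libraries. Gbp7 had 1.75, 1.65 and 1.47 CPM in shCtrl-CTRL, 0.743, 0.611 and 0.717 CPM in shCtrl-OGDR, 0.929, 1.4 and 0.437 CPM in shAnxa2-CTRL and 1.22, 1.07 and 1.84 CPM in shAnxa2-OGDR. The shCtrl-OGDR libraries were all below the shCtrl-CTRL libraries and the log2 fold change was -1.23 ± 0.326 (SE, edgeR adjusted p = 0.00208), the lowest of the members, and the interaction of 1.84 ± 0.467 (SE, edgeR adjusted p = 0.00123) was the highest. The difference of Gbp7 between the lines without OGD/R (-0.85 ± 0.315 SE, edgeR adjusted p = 0.0233) was lost without shCtrl-CTRL library 1 or 2 or shAnxa2-CTRL library 3, and that after OGD/R (0.99 ± 0.344 SE, edgeR adjusted p = 0.0143) without shCtrl-OGDR library 2 or shAnxa2-OGDR library 3.

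Gbp2 had 1.13, 0.403 and 1.07 CPM in shCtrl-CTRL, 1.06, 0.878 and 1.79 CPM in shCtrl-OGDR, 2.44, 2.55 and 1.39 CPM in shAnxa2-CTRL and 1.28, 1.55 and 0.921 CPM in shAnxa2-OGDR. Every shAnxa2-CTRL library was above every shCtrl-CTRL library, by 1.29 ± 0.337 (SE, edgeR adjusted p = 0.00206). Its interaction of -1.22 ± 0.489 (SE, edgeR adjusted p = 0.0299) was opposite in sign to those of Gbp3 and Gbp7, but was lost without any of 5 single libraries. The Gbp, Ifit and Oas families hold closely related copies, and how the counting treated reads shared between copies was not tested. Igtp and Irgm1, of the smaller GTPases, were not called after OGD/R in either line. Igtp, whose gene shares 7974 bases with Irgm2 on the same strand, was lower in the knockdown than in the control line after OGD/R (-0.49 ± 0.133 SE, edgeR adjusted p = 0.00249), and Irgm1 was at 23.2 to 24.8 CPM in all groups and was called in no comparison.

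Parp9, Dtx3l and Parp14 lie within one stretch of chromosome 16, and all 3 rose after OGD/R in shCtrl cells and fell in shAnxa2 cells. Parp9 and the ubiquitin ligase Dtx3l form a complex, and Parp14 is an ADP-ribosyltransferase. Parp9 had 35.5, 35.8 and 38.3 CPM in shCtrl-CTRL, 60.02, 64.8 and 66.9 CPM in shCtrl-OGDR, 48.1, 49.4 and 43.8 CPM in shAnxa2-CTRL and 32.5, 36.1 and 28.7 CPM in shAnxa2-OGDR. All 4 groups were separate for Parp9 except for shCtrl-CTRL and shAnxa2-OGDR, which overlapped. Its log2 fold change was 0.81 ± 0.0716 (SE, edgeR adjusted p = 6.72e-10) in shCtrl cells and -0.53 ± 0.0748 (SE, edgeR adjusted p = 2.01e-06) in shAnxa2 cells, and after OGD/R the log2 difference between the lines was -0.97 ± 0.0734 (SE, edgeR adjusted p = 2.49e-11). The interaction was -1.34 ± 0.104 (SE, edgeR adjusted p = 3.41e-11) for Parp9, -0.77 ± 0.0921 (SE, edgeR adjusted p = 7.67e-08) for Dtx3l and -0.81 ± 0.14 (SE, edgeR adjusted p = 1.55e-05) for Parp14. Parp9 and Dtx3l share 682 bases on opposite strands, and the kit named by the labels is not one that marks strand, so reads from these bases cannot be told apart. The same holds for the 7252 bases that Adar shares with Chrnb2 and the 45 bases that Irf7 shares with Phrf1, both on opposite strands. Irf9 shares 123 bases with Rnf31 on the same strand. The shared lengths given here and for Igtp are of whole genes from start to end, introns included, and shared exon bases were not measured. Parp14 shares none with its neighbours here, rose in shCtrl cells (0.50 ± 0.0969 SE, edgeR adjusted p = 8.51e-05) and fell in shAnxa2 cells (-0.31 ± 0.1004 SE, edgeR adjusted p = 0.0115), the latter lost without shAnxa2-CTRL library 1 or shAnxa2-OGDR library 3.

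Of the remaining members, Lgals3bp and Ifi27 were abundant and changed in all 5 comparisons. Lgals3bp had 62.4 ± 3.25 CPM in shCtrl-CTRL, 104 ± 2.12 in shCtrl-OGDR, 104 ± 6.72 in shAnxa2-CTRL and 70.1 ± 4.97 in shAnxa2-OGDR (SD, n = 3). It rose in shCtrl cells (0.74 ± 0.0583 SE, edgeR adjusted p = 7.79e-11) and fell in shAnxa2 cells (-0.57 ± 0.0586 SE, edgeR adjusted p = 2.11e-08). Ifi27 had 58 ± 6.64, 93.7 ± 8.97, 91 ± 8.14 and 65.6 ± 8.57 CPM in the same order, with changes of 0.70 and -0.48 on the log2 scale. For both genes the means of shCtrl-OGDR and shAnxa2-CTRL differed by less than the SD of either.

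Bst2 rose in shCtrl cells, from 65.8, 55.9 and 60.6 CPM to 91.2, 80.5 and 84.8 CPM (0.49 ± 0.0681 SE, edgeR adjusted p = 8.75e-07). In shAnxa2 cells it stood at 89.7, 99.9 and 93.8 CPM without and 90.2, 79.5 and 95.3 CPM after OGD/R, and the change of -0.10 ± 0.0673 (SE, edgeR adjusted p = 0.224) did not pass. Ifi35, a cytoplasmic interferon-induced protein, had 11.1, 10.9 and 10.6 CPM in shCtrl-CTRL, 9.58, 10.6 and 9.22 CPM in shCtrl-OGDR, 9.87, 8.76 and 9.17 CPM in shAnxa2-CTRL and 11.9, 11.8 and 10.2 CPM in shAnxa2-OGDR. Its OGDR libraries were all above the CTRL libraries in shAnxa2 cells (0.29 ± 0.103 SE, edgeR adjusted p = 0.0219), a call lost without a filter on low counts or without any of 4 of those 6 libraries. Xaf1, which binds the apoptosis inhibitor XIAP, was at about 1 CPM in all groups and was called in no comparison.

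Trim30a, which restrains NF-κB signalling, differed between the lines and its changes with OGD/R did not pass. It had 14.3, 14.9 and 15.1 CPM in shCtrl-CTRL, 12.3, 14.8 and 13.8 CPM in shCtrl-OGDR, 7.28, 7.55 and 6.71 CPM in shAnxa2-CTRL and 8.11, 8.5 and 7.76 CPM in shAnxa2-OGDR. No shAnxa2 library reached the lowest shCtrl library. The log2 difference between the lines was -1.05 ± 0.101 (SE, edgeR adjusted p = 4.46e-09) without and -0.75 ± 0.101 (SE, edgeR adjusted p = 5.76e-07) after OGD/R, and the changes with OGD/R were -0.12 and 0.18 on the log2 scale.

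**Figure D5:**
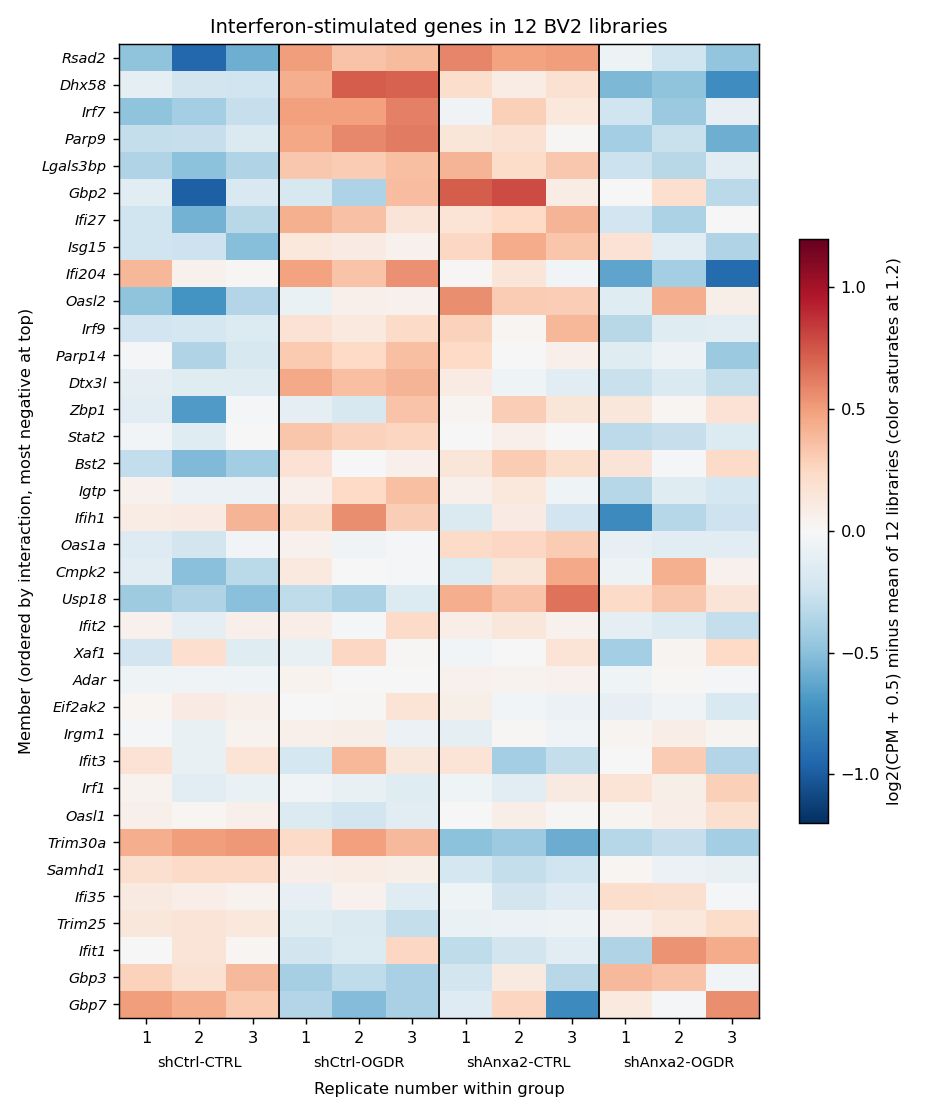
Level of the 36 members (y axis, ordered by the interaction) in each of the 12 libraries (x axis, by group and replicate), as log2(CPM + 0.5) minus the member's mean over the libraries. Most of the upper members are, in most libraries, above their mean in shCtrl-OGDR and shAnxa2-CTRL and below it in shCtrl-CTRL and shAnxa2-OGDR, and Usp18 and Trim30a differ between the lines.

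In all, 11 members were called in all 5 comparisons (Irf7, Irf9, Rsad2, Dhx58, Gbp3, Trim25, Parp9, Parp14, Samhd1, Lgals3bp and Ifi27) and 6 in none (Ifit1, Ifit3, Zbp1, Irgm1, Xaf1 and Adar). Of all genes tested, 31.9% were called in all 5 and 12.9% in none. The 15 tested members with an ISRE core had a median interaction of -0.52, with 2 higher and 8 lower, and the 14 tested members whose promoter held none had -0.31, with 4 higher and 6 lower. Background shares of 34.9% higher and 35.1% lower hold for both. The cores shown above for genes that rose, fell and did not pass differ in number and spacing, and no test related them to the changes.

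Upstream of the members, interferon itself was close to absent from the counts. The 21 interferon genes together had 24 counts of 281466127 in the 12 libraries, spread over 4 genes, and none passed the filter. Ifnb1, interferon beta, had 9 of these counts. Interferon protein was not measured. Of 10 receptors and signal carriers, 8 rose and 0 fell with OGD/R in shCtrl cells at an edgeR adjusted p under 0.05, and 0 rose and 5 fell in shAnxa2 cells, against the shares of all genes given above. At an unadjusted p under 0.05, 0 fell in shCtrl cells and 0 rose in shAnxa2 cells by edgeR and by DESeq2. After OGD/R, 9 of the 10 were lower in the knockdown line, against 34.2% of all genes tested, with 67.9% called in either direction.

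Tyk2, the kinase bound to Ifnar1, had 69.4, 67.1 and 68.3 CPM in shCtrl-CTRL, 189, 169 and 166 CPM in shCtrl-OGDR, 189.7, 179 and 178 CPM in shAnxa2-CTRL and 85.1, 88.2 and 88.9 CPM in shAnxa2-OGDR. Its untreated knockdown libraries overlapped the treated control libraries. It rose in shCtrl cells (1.36 ± 0.0514 SE, edgeR adjusted p = 1.89e-16), fell in shAnxa2 cells (-1.06 ± 0.0511 SE, edgeR adjusted p = 8.72e-14) and had an interaction of -2.42 ± 0.0724 (SE, edgeR adjusted p = 1.4e-18). Jak2, a kinase of the interferon gamma receptor, changed by 0.94 ± 0.0705 (SE, edgeR adjusted p = 3.32e-11) and -0.66 ± 0.0727 (SE, edgeR adjusted p = 5.19e-08), and Jak1 by 0.29 ± 0.0528 (SE, edgeR adjusted p = 5.02e-05) and -0.27 ± 0.053 (SE, edgeR adjusted p = 0.000169).

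The receptor chains differed in the size of their changes. Ifnar1 rose in shCtrl cells (0.19 ± 0.051 SE, edgeR adjusted p = 0.00223) and after OGD/R was lower in the knockdown line (-0.47 ± 0.052 SE, edgeR adjusted p = 2.05e-08). Ifnar2 and Ifngr1 were lower there as well, with log2 differences of -0.38 ± 0.0575 (SE, edgeR adjusted p = 2.86e-06) and -0.48 ± 0.0747 (SE, edgeR adjusted p = 4.1e-06). Ifngr2 changed by 0.64 ± 0.0525 (SE, edgeR adjusted p = 1.77e-10) in shCtrl and -0.42 ± 0.0526 (SE, edgeR adjusted p = 3.29e-07) in shAnxa2 cells. Ifnlr1, a chain of the interferon lambda receptor, changed by 0.65 ± 0.186 (SE, edgeR adjusted p = 0.00376) and -0.67 ± 0.19 (SE, edgeR adjusted p = 0.00433), at group means of 2.05 to 3.47 CPM. Il10rb, the chain that this receptor shares with that of interleukin 10, rose in shCtrl cells (0.49 ± 0.0618 SE, edgeR adjusted p = 2.45e-07), and its change of -0.07 ± 0.0634 (SE, edgeR adjusted p = 0.397) in shAnxa2 cells did not pass.

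Of 15 genes of nucleic acid sensing before interferon, 6 rose and 8 fell in shCtrl cells and 6 rose and 5 fell in shAnxa2 cells, which is 93.3% and 73.3% called against 63.4% and 55.0% of all genes tested. Ikbke, a kinase that activates interferon regulatory factors, and Ticam1, the adaptor TRIF, had interactions of -2.26 ± 0.0756 (SE, edgeR adjusted p = 8.72e-18) and -1.19 ± 0.102 (SE, edgeR adjusted p = 2.27e-10). Cgas, the DNA sensor, and Myd88, a Toll-like receptor adaptor, had 1.62 ± 0.0921 (SE, edgeR adjusted p = 1.16e-13) and 1.65 ± 0.0736 (SE, edgeR adjusted p = 1.37e-15). Of the 11 tested of 12 negative regulators, 6 rose and 1 fell in shCtrl cells and 2 rose and 4 fell in shAnxa2 cells, with 63.6% and 54.5% called against the same shares. Cul4a and Ptpn6 had interactions of -0.76 and -0.54, and Ptpn2 and Ptpn11, both phosphatases, of 0.36 and 0.25.

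Among 74 other interferon-stimulated genes, 51 were tested, of which 24 rose and 9 fell in shCtrl cells and 6 rose and 18 fell in shAnxa2 cells. The share called was 64.7% and 47.1%, against 63.4% and 55.0% of all genes tested. Their interaction was lower for 24 and higher for 9, which is 64.7% against 70.0%. Slfn2, of the Schlafen family, and Trim14 had the lowest interactions, of -2.81 ± 0.106 (SE, edgeR adjusted p = 6.11e-17) and -2.07 ± 0.253 (SE, edgeR adjusted p = 9.6e-08). Slfn9 and Ifi30, a lysosomal thiol reductase, had the highest, of 1.35 ± 0.0762 (SE, edgeR adjusted p = 1.06e-13) and 0.90 ± 0.0695 (SE, edgeR adjusted p = 3.25e-11). Slfn2 had 28.5, 27.5 and 25.5 CPM in shCtrl-CTRL, 80.7, 92.4 and 98.3 CPM in shCtrl-OGDR, 89.4, 83.2 and 77.7 CPM in shAnxa2-CTRL and 41, 41.5 and 35.6 CPM in shAnxa2-OGDR. Its untreated knockdown libraries overlapped the treated control libraries.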

How the data were processed

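RNA of 12 BV2 libraries was sequenced after preparation with the NEBNext Ultra RNA kit. The deposited table holds raw counts, as the number of reads that the authors assigned to each of 21834 genes, all protein-coding. The submitters' processing notes name HISAT2 2.0.4 and the mm39 build, whereas the study's methods, written for tissue, name another aligner and HTSeq. The strand setting of the counting is not given in the sources used here. Another 12 per-sample columns, the same counts after scaling, were not used.

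The 11626 genes that reached 0.5 CPM in 3 or more libraries were fitted in edgeR 4.0.16 under R 4.3.3 as 4 group means over all libraries, with TMM normalization. Quasi-likelihood tests were adjusted by Benjamini-Hochberg over all genes tested, and a gene was called at an adjusted p under 0.05. The standard error is the log2 fold change divided by the square root of F. The common biological coefficient of variation was 5.35%. CPM values use library totals (19521877 to 27288843 counts) scaled by the TMM factors, and intervals of low genes are limited by counting. The steps were tested on simulated counts. Within groups, library pairs differed by more than counting noise, and each was kept as a separate replicate.

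The members and pathway lists were chosen with earlier results of these data known. The values of 1 gene of the receptor and signal carrier list are not reported here, and the counts of that list include it. Values in every library are given for Irf1, Irf7, Irf9, Stat2, Isg15 and Usp18 and, per comparison and direction, for the 3 members with the largest log2 fold change that were called, averaged at least 1 CPM and, outside the interaction, had separate libraries. Values in every library of other genes were added after they were seen. Of each other list, the 2 genes per direction with the largest interaction are named, with fixed receptors and kinases, and Ifnlr1 and Il10rb were added after their values were seen. Exon lengths are from GENCODE on GRCm38 and promoters from RefSeq GRCm38.p6. Usp18, Parp14, Ifi204, Ifi27, Parp9, Mx1, Zbp1 and Dhx58 had no promoter there.

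The alternatives were median-of-ratios size factors, no filter, a filter of 1 CPM, the replicate number as a block, only the groups compared, DESeq2 1.42.0, an unadjusted p under 0.05 with a fold limit, and leaving out each library. Summaries and plots were made in Python 3.11.15, using matplotlib 3.10.9, pandas 2.3.3 and numpy 2.4.6.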

Additional observations from a re-analysis of the deposited data

Results flagged for a closer look

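The change after OGD/R differed between shAnxa2 and shCtrl cells for 26 of the 36 members tested, by the interaction term of the edgeR model (72.2%, against 70.0% of all genes tested). The interaction is the log2 fold change in shAnxa2 minus that in shCtrl cells. It rests on the treatment labels of the shAnxa2 libraries, which were not tested against another measurement of the same libraries. Among the signalling and modifier genes it was -1.42 for Irf7, -0.84 for Irf9, -0.62 for Stat2, -1.13 for Isg15 and -0.41 for Usp18. Among the antiviral enzymes and sensors it was -1.93 for Rsad2, -1.67 for Dhx58, -0.53 for Ifih1, -1.03 for Ifi204, -0.86 for Oasl2, -0.52 for Oas1a and -0.37 for Ifit2. It was -1.34 for Parp9, -0.81 for Parp14 and -0.77 for Dtx3l. Of the abundant or membrane proteins, Lgals3bp had -1.31, Ifi27 -1.17 and Bst2 -0.59. Of the GTPases, Gbp2 had -1.22 and Igtp -0.57.

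The interaction was positive for 6 members, with 1.84 for Gbp7, 1.14 for Gbp3, 0.54 for Trim25, 0.43 for Ifi35, 0.34 for Samhd1 and 0.30 for Oasl1.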

How the results depend on the processing

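Counts of members called stayed within 1.5 times under median-of-ratios size factors, a filter of 1 CPM, the fits of only the groups compared and DESeq2, and no member's called change reversed under any alternative. Without a filter on low counts, 3 in place of 5 members rose in shAnxa2 cells. With the unadjusted p and the fold limit, 1 member rose and 1 fell in shCtrl cells, 0 and 0 in shAnxa2 cells, 3 were higher and 1 lower in the untreated knockdown line, 0 and 2 after OGD/R, and 2 and 9 in the interaction, since few members change by that much. Leaving out 1 library gave 12 to 15 higher and 5 lower for OGD/R in shCtrl cells, 3 to 5 and 11 to 16 in shAnxa2 cells, 13 to 16 and 3 to 6 for the knockdown without OGD/R, 5 to 7 and 16 to 17 after OGD/R, and 6 to 7 and 18 to 22 for the interaction. The 3 that rose in shAnxa2 cells came without shAnxa2-CTRL library 1 or 3 or shAnxa2-OGDR library 1 or 2, and the 3 that were lower in the untreated knockdown line without shAnxa2-CTRL library 3. Of 2160 single-gene values with 1 library left out, 72 lost and 29 gained the call. The other settings lost 1 to 4 and gained 0 to 3 of 142 to 180 values each.

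The replicate number showed no strong pairing of the libraries, with a correlation of same-numbered libraries over 0.1 in 1 of 18 pairs (range -0.08 to 0.18). These correlations cannot show whether same-numbered libraries were handled together. The fit with the replicate number as a block called 14 higher and 5 lower members for OGD/R in shCtrl cells, and of 180 single-gene values 1 lost its call, that of Usp18 in shAnxa2 cells. Depth limits the precision for the 10 members under 5 CPM, among them Isg15, Gbp2 and Gbp7.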
